A study of Mus musculus with 1 sample.

Results

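The genes described here are 10 markers of epithelial and mesenchymal cell state, out of 32285 genes counted in single cells of MC38 tumors. They were chosen by name and comprise the keratins Krt8, Krt18, Krt7 and Krt19, the epithelial adhesion genes Epcam and Cdh1, and the mesenchymal genes Cdh2, Vim, Zeb1 and Zeb2. MC38 is a mouse colon carcinoma cell line that grows in C57BL/6J mice, and the question was whether the tumor cells carried epithelial or mesenchymal transcripts. The library was made from 5 control tumors that were pooled before capture and carried the genotype label WT. The mice were 4 to 6 weeks of age, which the study's methods give as their age when purchased. The study calls its control line shNTC, a name that the labels of this library do not carry, and the pool of Atp6v0a1 knockdown tumors was not analysed here.

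With 1 library and no replicate, no difference described here was tested. The 95% intervals are exact Poisson intervals for levels, Clopper-Pearson intervals for shares and conditional binomial intervals for ratios, and they cover counting error only. A count of 0 is given with the limit that 3 counts would set. Levels are unique molecular identifiers (UMIs) of a gene per 1000000 UMIs of a cell group, written as CPM. These 3' tag counts carry no length factor, although genes can still differ in how well their 3' ends are captured, so levels of different genes were compared with care.

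The library held 5307 called cells and 106631000 UMIs, from 511 to 231902 per cell. After 667 cells with over 20% mitochondrial UMIs and 197 likely doublets were left out, 4443 cells remained, with a median of 10442 UMIs. Tumor cells were those with at least 3 UMIs of Rhox5 and Shisal2b together, transcripts that mark the tumor line, and fewer than 3 UMIs per 10000 of Tyrobp and Fcer1g, adaptors of myeloid immune receptors. There were 1669 of them (37.6% of kept cells), with a median of 41980 UMIs. Of these, 735 had at least 10 UMIs of the collagen gene Col3a1 per 10000 (median depth 32722 UMIs) and 934 had fewer (51825.5 UMIs). The comparison groups were 2064 myeloid cells (median depth 6582 UMIs), 44 fibroblasts (6096 UMIs) and 107 T and NK cells (5268 UMIs). A further 11 endothelial cells, 84 cells with both tumor and myeloid transcripts and 464 shallow unassigned cells (901.5 UMIs) completed the library.

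Both limits ran through a continuum of cells. Among the tumor cells, 70 had only 3 or 4 UMIs of Rhox5 and Shisal2b, against a median of 35. Of the cells with Tyrobp and Fcer1g under the limit, 230 had 1 or 2. The Col3a1 median was 8.09 per 10000, with 344 tumor cells between 5 and 10 and 368 between 10 and 20, so the Col3a1-high and Col3a1-low groups are ranges and not cell types.

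Simple epithelia, such as the lining of the colon, are built on keratin filaments of type II (Krt8, Krt7) paired with type I (Krt18, Krt19) and on cell contacts made by the adhesion molecules E-cadherin and EpCAM. In an epithelial-mesenchymal transition these are lost, E-cadherin gives way to N-cadherin, and vimentin becomes the main cytoplasmic filament. The zinc finger proteins ZEB1 and ZEB2 repress E-cadherin and other epithelial genes through E-box sequences in their promoters, while both genes are also used by healthy mesenchymal cells, and Zeb2 by macrophages.

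The tumor cells held almost no transcripts of the 6 epithelial genes and large amounts of the mesenchymal ones. Together, Krt8, Krt18, Krt7, Krt19, Epcam and Cdh1 gave 47 of 75460180 tumor-cell UMIs, or 0.623 CPM (0.458 to 0.828). The mesenchymal genes gave 257126 UMIs, or 3407 CPM (3394 to 3421), of which Vim made up 3298. The sample label gives the cell type as epithelial cells. The tumor cells did not bear this label out, since 2 of the 6 epithelial genes had no UMI and the other 4 had 22 or fewer.

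**Figure D1:**
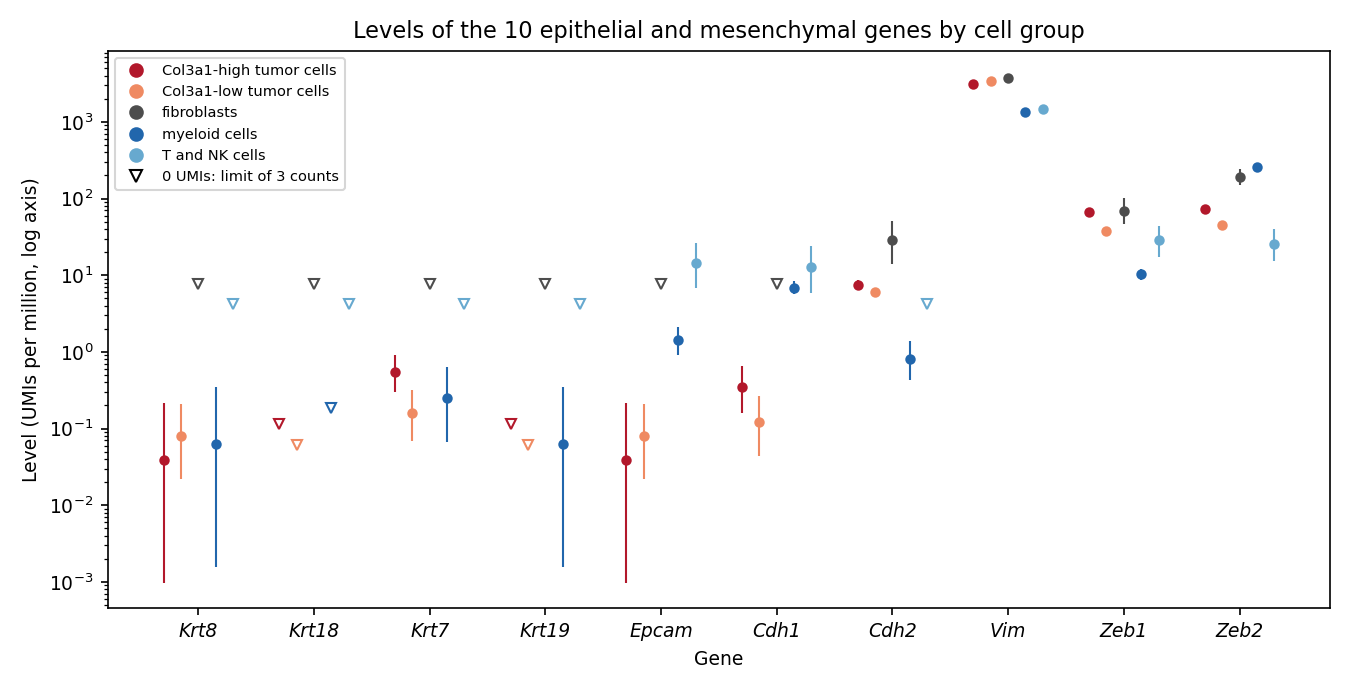
Levels of the 10 genes in CPM (vertical log axis) in 5 cell groups, with points for levels, bars for 95% Poisson intervals and open triangles for the limit of 3 counts where a group had 0 UMIs. Vim stands above 1000 in each of these groups, while the 6 epithelial genes lie below 1 CPM in both tumor groups.

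Krt8 and Krt18, which encode the first keratin pair of simple epithelia, lie next to each other on chromosome 15 (GENCODE M21 on GRCm38). Krt8 spans chr15:101996698-102004482 on the minus strand and Krt18 spans chr15:102028180-102032027 on the plus strand, with 23697 bases between the gene bodies. Krt8 had 5 UMIs in 4 of 1669 tumor cells, or 0.0663 CPM (0.0215 to 0.155). Krt18 had 0 UMIs, which allows at most 0.0398 CPM and 0.180% of tumor cells with a UMI. The pair was thus at or near 0 in cells with a median depth of 41980 UMIs.

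Krt7 (chr15:101411043-101430313, plus strand), a type II keratin of ducts and other simple epithelia, was the most frequent of the 4 keratins. It had 22 UMIs in 17 tumor cells, or 0.292 CPM (0.183 to 0.441), with at most 3 in a cell. Over the alternative settings its level ranged from 0.284 to 0.469 CPM. Krt19 (chr11:100140810-100148665, minus strand), the smallest type I keratin and a marker of gut and ductal epithelium, had 0 UMIs in tumor cells and the same limit as Krt18. In myeloid cells, which serve as a background since they make no simple-epithelial keratins, Krt8 had 1 UMI, Krt18 had 0, Krt7 had 4 (0.248 CPM) and Krt19 had 1. The tumor-to-myeloid ratios of Krt8 and Krt7 were 1.07 (0.120 to 50.6) and 1.18 (0.399 to 4.69), so no excess in tumor cells was detectable at this depth. In the 44 fibroblasts and the T and NK cells the 4 keratins had 0 UMIs, but the limits there, 7.75 and 4.27 CPM, are far less strict.

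Epcam (chr17:87635979-87651129, plus strand), a surface glycoprotein of epithelial cells, had 5 UMIs in 2 tumor cells, 4 of them in a single cell. Its level was 0.0663 CPM (0.0215 to 0.155), and 0.0133 without that cell. Cdh1 (chr8:106603351-106670246, plus strand), which encodes E-cadherin, had 15 UMIs, each in a different tumor cell, or 0.199 CPM (0.111 to 0.328). No tumor cell had UMIs of more than 1 of the 6 epithelial genes. In all, 38 tumor cells (2.28%) had any such UMI. These cells kept the mesenchymal genes: Vim was 3052 CPM in them and 3305 in the other tumor cells, and Zeb1 was 56.0 and 47.8. Krt14, a keratin of basal skin cells, was 29.6 in them against 5.59 CPM, a difference that rested on 2 cells with 28 and 24 UMIs: without these it was 2.86 CPM, a ratio of 0.512 (0.165 to 1.2).

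Promoters are shown for Krt8, Krt18 and Epcam, 3 of the scarce epithelial genes, and for Vim, the most abundant gene of the group, because the ZEB proteins bind the E-box CAGGTG and its reverse complement CACCTG. The sequences are those of RefSeq (GRCm38.p6), from 250 bases before to 50 after the transcription start, and the motif was searched on both strands as CAGGTG or CACCTG, with matches in capitals. RefSeq promoters were matched for 6 of the 10 genes; those of Krt19, Cdh1, Cdh2 and Zeb1 were not matched. The Krt8 window is chr15:102004293-102004592 (minus strand), the Krt18 window chr15:102027966-102028265 (plus strand), the Epcam window chr17:87635729-87636028 (plus strand) and the Vim window chr2:13574061-13574360 (plus strand).
Krt8: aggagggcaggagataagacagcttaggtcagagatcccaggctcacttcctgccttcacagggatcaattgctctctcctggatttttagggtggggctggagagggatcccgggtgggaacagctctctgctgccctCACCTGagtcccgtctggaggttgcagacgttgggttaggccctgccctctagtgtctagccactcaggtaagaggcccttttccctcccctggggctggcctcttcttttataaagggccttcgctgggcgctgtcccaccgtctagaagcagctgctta
Krt18: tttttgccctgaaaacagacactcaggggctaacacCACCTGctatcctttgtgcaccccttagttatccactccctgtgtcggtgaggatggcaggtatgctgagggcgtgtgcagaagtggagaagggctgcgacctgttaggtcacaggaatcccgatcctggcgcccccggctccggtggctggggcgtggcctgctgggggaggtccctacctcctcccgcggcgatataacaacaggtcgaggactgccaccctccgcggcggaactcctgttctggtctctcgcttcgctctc
Epcam: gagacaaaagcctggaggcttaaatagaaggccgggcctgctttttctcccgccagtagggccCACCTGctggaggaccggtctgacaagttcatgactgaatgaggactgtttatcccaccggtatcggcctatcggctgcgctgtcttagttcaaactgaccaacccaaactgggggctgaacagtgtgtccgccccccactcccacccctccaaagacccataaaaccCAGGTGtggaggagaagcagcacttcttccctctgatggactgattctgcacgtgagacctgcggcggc
Vim: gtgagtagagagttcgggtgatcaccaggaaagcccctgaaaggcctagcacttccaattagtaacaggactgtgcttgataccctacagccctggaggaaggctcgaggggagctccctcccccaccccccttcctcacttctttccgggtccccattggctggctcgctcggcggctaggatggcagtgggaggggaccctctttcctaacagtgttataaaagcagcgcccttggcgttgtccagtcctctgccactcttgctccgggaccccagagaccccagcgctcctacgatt
Counted from 0 at the start site, the match begins at -111 in Krt8 and at -214 in Krt18, and Epcam has matches at -187 and -19. The Krt7 promoter has a match at -44. Neither the Vim window nor any of the 4 Zeb2 windows in the table holds the motif. Of all 32851 mouse promoters of this length, 6640 (20.2%) hold at least 1 match and 946 (2.88%) at least 2. A match describes the letters in the window and not a bound site.

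Outside the tumor cells, Cdh1 and Epcam were found in immune cells. Cdh1 had 111 UMIs in 86 of 2064 myeloid cells (4.17%), or 6.88 CPM (5.66 to 8.29), and the tumor-cell level was 0.0289 of that (0.0156 to 0.0497). Epcam had 23 UMIs in 10 myeloid cells, or 1.43 CPM (0.904 to 2.14), and its tumor-cell level was 0.0465 of that (0.0138 to 0.125). In T and NK cells Epcam stood at 14.2 CPM (6.82 to 26.2) in 7 cells and Cdh1 at 12.8 (5.85 to 24.3) in 6 cells. For both genes the order of levels was T and NK cells, myeloid cells and then tumor cells. The intervals did not overlap between myeloid and tumor cells for either gene, while those of T and NK cells and myeloid cells overlapped for Cdh1. The fibroblasts had 0 UMIs of both.

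The immune cells with these UMIs were looked at further with genes chosen after the values had been seen. The 10 Epcam-positive myeloid cells had 76.8 CPM of Zbtb46, a transcription factor of conventional dendritic cells, against 1.25 in the other myeloid cells. Of the integrin Itgae they had 85.4 against 2.43. These values came from 9 UMIs of Zbtb46 (ratio 61.5, 24.7 to 141) and 10 of Itgae (ratio 35.1, 15.6 to 71.5). C1qa, a complement gene of macrophages, was 154 against 6913 CPM, so of these genes the dendritic ones were high and the macrophage one was low. They also had less Zeb2, at 34.1 against 261. The 86 Cdh1-positive myeloid cells had 12.9 CPM of Zbtb46 (14 UMIs) against 0.997, but C1qa was close in both sets, at 6753 and 6872. Of lymphocyte genes, the granzyme gene Gzmc was 210.4 against 8.57, the perforin gene Prf1 10.2 against 0.664 and the T cell gene Cd8a at 0 UMIs against 11. The Gzmc and Prf1 differences rested on single cells, with 225 of the 228 Gzmc UMIs and 10 of the 11 Prf1 UMIs. Without the highest cell Gzmc was 2.81 CPM, lower than in the other myeloid cells, and Prf1 had 1 UMI. Without the 2 highest cells Zbtb46 was 45.8 CPM (4 UMIs) in the Epcam-positive and 6.62 (7 UMIs) in the Cdh1-positive myeloid cells, still above the others. Among the T and NK cells, Gzmc was 18300 CPM in the 6 Cdh1-positive cells and 1301 in the others, and 14761 against 1954 in the 7 Epcam-positive cells. Both values rested on 2 cells each, and without them Gzmc was 153 CPM in the Cdh1-positive cells and had 0 UMIs in the Epcam-positive ones. Prf1 was 713 CPM in the Cdh1-positive T and NK cells against 646, and 453 against 680 in the Epcam-positive ones. Cd8a was lower in both sets, at 414 against 633 and 189 against 659. Cells with an Epcam or Cdh1 UMI were deeper than the rest in each case (for Epcam in myeloid cells, a median of 10684 against 6553 UMIs), and the part of depth was not tested.

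The highest levels of the epithelial genes lay in cells outside every named group. Cells with at least 5 UMIs of the 6 genes, from at least 3 of them, numbered 0 among tumor, myeloid, fibroblast and T and NK cells and 3 among the unassigned cells. All 3 had UMIs of secretory genes of lung epithelium. A group of 19 unassigned cells with at least 3 UMIs of Scgb1a1, Scgb3a2, Sftpc, Sftpb and Sftpa1, chosen after the data had been seen, had a median of 627 UMIs per cell. In them Krt18 and Epcam both stood at 621 CPM (284 to 1179), Krt8 at 414 (152 to 901) and Cdh1 at 345 (112 to 805). Krt7 and Krt19 had 3 UMIs each, or 207 CPM (42.7 to 605), and Vim was at 345 (112 to 805). Cdh2, Zeb1 and Zeb2 had 0 UMIs. The summed level of the 6 epithelial genes was 2416 CPM (1683 to 3360) in these cells. Krt18 and Krt19 transcripts were thus recorded in this library, although not in its tumor cells. The lung genes themselves gave 6 UMIs in tumor cells, and no tumor cell had 3 of them. Among the myeloid cells, 7 had at least 3, with a median depth of 659 UMIs. These 7 held the 1 myeloid UMI of Krt19 and 0 UMIs of Krt8, Krt18, Krt7, Epcam and Cdh1.

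Cells left out by the filters held few epithelial transcripts. The 667 cells above the mitochondrial limit, with 3552115 UMIs, had 0 UMIs of Krt8, Krt18, Krt19 and Epcam, 1 of Krt7 and 2 of Cdh1. Of the mesenchymal genes they had 121 CPM of Zeb1, 204 of Zeb2, 14.4 of Cdh2 and 1005 of Vim. The tumor gate was passed by 132 of them. The 197 likely doublets, with 8256746 UMIs, had 3 of Krt8, 3 of Krt7, 1 of Epcam and 15 of Cdh1, and 0 of Krt18 and Krt19.

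Vim (chr2:13573927-13582826, plus strand), which encodes vimentin, was detected in 1666 of 1669 tumor cells (99.8%). Its level in tumor cells was 3298 CPM (3285 to 3311). The median tumor cell had 28.9 UMIs of Vim per 10000, with quartiles of 21.2 and 39.1 and a highest value of 130.7. In fibroblasts Vim was 3763 CPM (3573 to 3962), in myeloid cells 1356 (1338 to 1374) and in T and NK cells 1466 (1378 to 1558). The order of levels was fibroblasts, tumor cells, T and NK cells and myeloid cells, and no neighbouring intervals overlapped. Per cell, the first and the last step turned: the median was 23.7 UMIs of Vim per 10000 in fibroblasts, 11.4 in T and NK cells and 11.6 in myeloid cells. The ratio of tumor cells to fibroblasts was 1.14 as a mean over cells and 1.05 without a mitochondrial limit. The 11 endothelial cells stood at 3892 (3462 to 4360), an interval that overlaps that of fibroblasts.

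Zeb1 and Zeb2, the paralogous repressors, were detected in most tumor cells at levels far below Vim. Zeb1 (chr18:5591860-5775467, plus strand) had 3621 UMIs in 1191 tumor cells (71.4%), or 48.0 CPM (46.4 to 49.6). Zeb2 (chr2:44983632-45117395, minus strand) had 4143 UMIs in 1203 tumor cells (72.1%), or 54.9 CPM (53.2 to 56.6). UMIs of both were found in 982 tumor cells (58.8%) and of neither in 257, whose median depth was 16784 UMIs against 51111 in the cells with both. Most tumor cells thus carried both repressors, and those without were shallow. Zeb1 overlaps Gm10125 (144 UMIs) and Zeb2 overlaps Zeb2os (1145 UMIs) in the annotation, and how UMIs of such pairs were divided is not given in the sources used here.

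Across the groups the paralogs followed different orders. Zeb1 was highest in endothelial cells at 117.9 CPM (53.9 to 224), then fibroblasts at 69.7 (46.0 to 101), tumor cells, T and NK cells at 28.4 (17.4 to 43.9) and myeloid cells at 10.3 (8.78 to 12.0). The fibroblast interval overlapped those of its neighbours, while tumor, T and NK and myeloid cells were separated from each other. Zeb2 was highest in myeloid cells at 259 CPM (252 to 267), then fibroblasts at 194 (152 to 243), tumor cells and T and NK cells at 25.6 (15.2 to 40.5). The 11 endothelial cells had 1 UMI of Zeb2, or 13.1 CPM (0.332 to 73.0). In myeloid cells 1262 (61.1%) had Zeb2 UMIs without Zeb1, against 221 tumor cells (13.2%).

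Cdh2 (chr18:16588877-16809246, minus strand), which encodes N-cadherin, was the scarcest of the mesenchymal genes. It had 494 UMIs in 351 tumor cells (21.0%), or 6.55 CPM (5.98 to 7.15). Fibroblasts had 28.4 CPM (14.2 to 50.8) from 11 UMIs, myeloid cells 0.806 (0.429 to 1.38) from 13 UMIs, and T and NK cells 0 UMIs with a limit of 4.27. Of the cadherin pair, the tumor cells therefore carried mainly the N-cadherin transcript, and at a lower level than the fibroblasts.

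Shares of cells with a UMI depend on depth, and the tumor cells were the deepest group. After each cell was thinned to 1000 UMIs, with 6 tumor cells, 189 myeloid cells and 8 fibroblasts left out as shallower, Vim was found in 91.6% of tumor cells, 68.1% of myeloid cells and 86.1% of fibroblasts, against 99.8%, 95.3% and 88.6% from all UMIs. Zeb1 was at 4.81%, 1.44% and 8.33% after thinning, in the same order of groups, and at 71.4%, 6.98% and 34.1% before. Zeb2 was at 6.37%, 23.8% and 19.4% after thinning and at 52.3% of fibroblasts before. Cdh2 was at 0.601%, 0.0533% and 2.78%, from 21.0%, 0.581% and 20.5%. These thinned Cdh2 shares were 10 of 1663 tumor cells, 1 of 1875 myeloid cells and 1 of 36 fibroblasts in a single random draw. The thinned Zeb1 share of fibroblasts was 3 of 36 cells, so for both genes the fibroblast share is coarse. The near-equal unthinned shares of Zeb2 in tumor cells (72.1%) and myeloid cells (66.2%) thus gave way, at equal depth, to an excess in myeloid cells, the same order as in the levels.

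**Figure D2:**
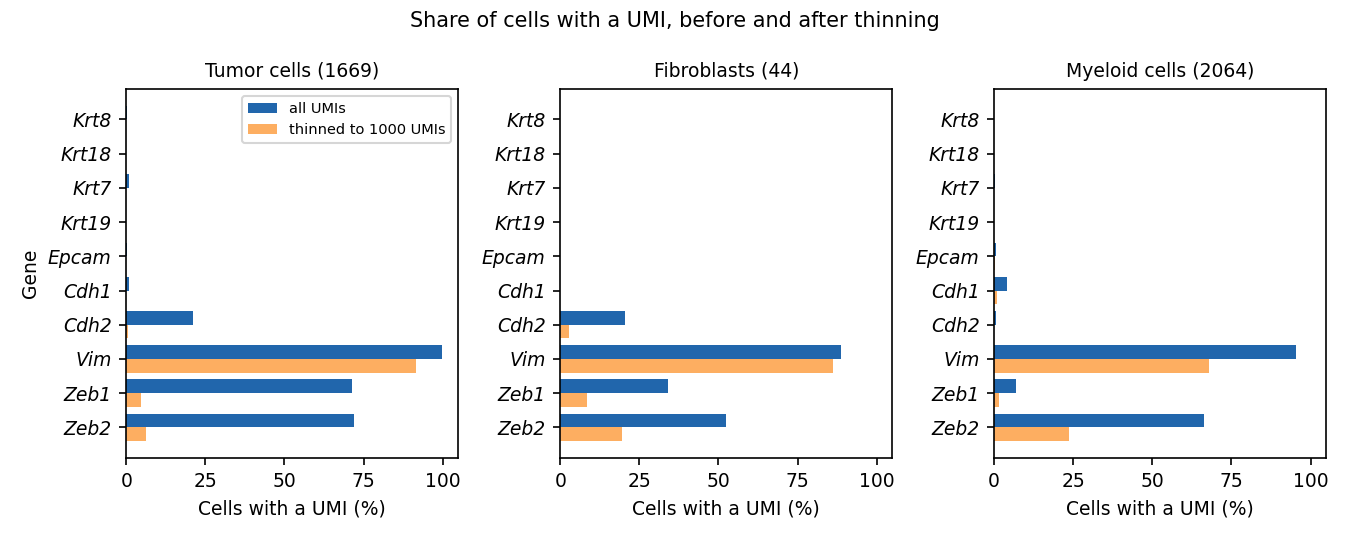
Share of cells with a UMI of each gene (horizontal axis, percent of cells) in tumor cells, fibroblasts and myeloid cells, from all UMIs and after thinning each cell to 1000 UMIs. Zeb1 in tumor cells goes from 71.4% to 4.81% and Vim from 99.8% to 91.6%, while no epithelial gene is found in more than 1.02% of tumor cells.

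Free RNA in the droplets was gauged by transcripts that a group should lack. Lyz2, a macrophage gene at 7132 CPM in myeloid cells, was 39.3 in tumor cells, or 0.550% of its myeloid level. In the other direction, Cald1 (caldesmon), an actin-binding gene, was in myeloid cells at 7.05% of its tumor level, the transcription factor gene Sox9 at 8.70%, Twist1 at 9.50% and the chromatin protein gene Hmga2 at 11.9%. Cdh2 in myeloid cells, at 0.806 CPM (0.429 to 1.38) from 13 UMIs, was 12.3% of its tumor level, near the value of Hmga2. With so wide an interval its place among these percentages is not settled by the counts. Zeb1 at 21.4% and Vim at 41.1% were well above them. The part of free RNA in the Cdh2 value was not tested.

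Between Col3a1-high and Col3a1-low tumor cells, Zeb1 and Zeb2 were higher in the Col3a1-high cells while Vim and Cdh2 differed little. Zeb1 was 66.7 CPM (63.6 to 69.9) in the Col3a1-high and 38.2 (36.5 to 40.0) in the Col3a1-low cells, a ratio of 1.74 (1.63 to 1.86). Zeb2 was 74.0 (70.7 to 77.4) and 45.0 (43.1 to 46.9), a ratio of 1.65 (1.55 to 1.75). Vim was 3154 (3132 to 3176) and 3373 (3357 to 3389), a ratio of 0.935 (0.927 to 0.943), and Cdh2 was 7.54 (6.52 to 8.68) and 6.03 (5.36 to 6.75), a ratio of 1.25 (1.04 to 1.5). No ratio among the 4 genes with at least 50 UMIs reached 2-fold, where 5.4% of 11735 such genes did. A ratio of at least 1.5 with higher levels in Col3a1-high cells, the size that Zeb1 and Zeb2 passed, was shared by 15.3% of these genes, so it is common among genes. Shares of cells followed the same order: Zeb1 was found in 74.7% of Col3a1-high and 68.7% of Col3a1-low cells, and after thinning to 1000 UMIs, with 5 and 1 shallower cells left out, in 5.75% and 4.07%. For Zeb2 these shares were 74.0% and 70.6%, and 7.81% and 5.25% after thinning. The median log2 ratio was 0.52 over the 4 mesenchymal genes and 0.13 over all genes with enough UMIs.

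The epithelial genes had too few UMIs for this comparison. Krt7 had 14 UMIs in Col3a1-high and 8 in Col3a1-low cells, a ratio of 3.36 (1.31 to 9.24), and Cdh1 had 9 and 6, a ratio of 2.88 (0.915 to 9.83). Krt8 and Epcam both had 1 and 4 UMIs, and Krt18 and Krt19 had 0 in both groups. Whichever group was taken, the 6 genes together stayed under 1 CPM, at 0.967 (0.626 to 1.43) in the Col3a1-high and 0.443 (0.278 to 0.671) in the Col3a1-low cells.

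Over 5 classes of rising Col3a1 the levels of both ZEB genes were higher at each step. From cells with under 1 Col3a1 UMI per 10000 to cells with 20 or more, Zeb1 went through 30.1, 36.0, 43.9, 52.5 and 88.2 CPM, where the intervals of the lowest 2 classes overlapped. Zeb2 went through 33.5, 45.9, 47.2, 63.8 and 89.5, where the intervals of the classes at 45.9 and 47.2 overlapped. Vim was highest in the lowest 2 classes and varied far less (3519, 3516, 3131, 3193 and 3094), while Cdh2 showed no order (7.32, 5.97, 5.69, 7.70 and 7.30). Fn1, the fibronectin gene, rose from 264 to 1881 and the repressor gene Snai2 from 6.98 to 34.7. Other regulators had no steady order: Snai1 went through 24.8, 35.4, 42.7, 43.1 and 37.9, Twist1 through 68.1, 62.9, 56.5, 61.4 and 71.7, and Prrx1 through 61.3, 65.4, 50.8, 60.8 and 89.4. Shisal2b, by contrast, fell from 297 to 106 CPM. The median depth was 43327 UMIs in the lowest class, at most 52718.5 in the middle ones and 25434 in the highest.

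**Figure D3:**
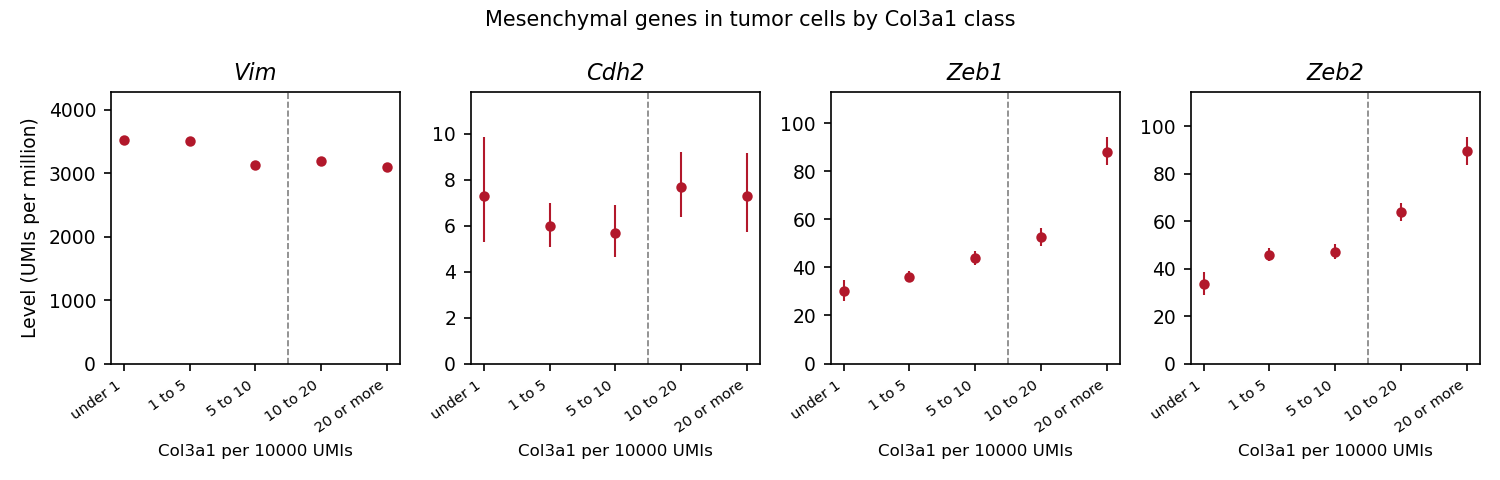
Levels of Vim, Cdh2, Zeb1 and Zeb2 (CPM, axes from 0) in tumor cells by Col3a1 class, with 95% Poisson bars; the dashed line marks the limit of 10 per 10000. Zeb1 climbs from 30.1 to 88.2 and Zeb2 from 33.5 to 89.5, while Vim stays between 3094 and 3519.

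Because depth and cell cycle differed between the Col3a1 groups, the ratios were also taken within 3 depth classes of nearly equal size and by cycling, as additions made after the data had been seen. The Zeb1 ratio was 1.97 in the shallowest class, 1.70 in the middle and 1.48 in the deepest, and the Zeb2 ratio was 2.03, 1.60 and 1.36. Both remained above 1 in each class, with a lowest bound of 1.23, and shrank with depth. Among cycling cells (at least 3 UMIs of Mki67 and Top2a) the Zeb1 and Zeb2 ratios were 1.62 and 1.55, and among the others 1.98 and 1.64. The Vim ratio was 1.10 (1.08 to 1.13) in the shallowest class and 0.880 and 0.980 in the others, so its direction depended on depth. The Cdh2 ratio was 1.88 (1.0 to 3.73), 1.62 (1.17 to 2.26) and 0.949 (0.693 to 1.28). The mitochondrial share of UMIs differed too, with a median of 3.46% in Col3a1-high and 2.23% in Col3a1-low cells. Its part in the Zeb1 and Zeb2 ratios was not tested.

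Markers of fibroblasts moved with the same split. Of 10 such genes, 9 had enough UMIs and 7 were at least 2-fold higher in Col3a1-high tumor cells, where 539 of 11735 genes were, with a summed level of 3559 against 1500 CPM. The most abundant was Dcn (decorin) at 2766 and 1247, a gene that tumor cells (1767) and fibroblasts (2190.3) shared. Col1a2, the gene of the fibroblast gate, was 22.8 in tumor cells and 9727 in fibroblasts. None of the 10 was at 0 in tumor cells. The 9 myeloid markers, led by Lyz2, summed to 131 in Col3a1-high and 96.4 in Col3a1-low cells, with 0 past 2-fold and 0 of them without UMIs; in myeloid cells they summed to 22407. Tyrobp and Fcer1g, which are among these markers, were limited in tumor cells by the gate. The 5 endothelial markers summed to 40.1 and 17.0, led by Fabp4 (36.7 and 13.3), which fat cells and macrophages also use. The part of these in the Zeb1 and Zeb2 ratios was not tested.

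Within the Col3a1-low tumor cells, 621 cycling cells were set against 313 others. Zeb1 was 39.0 and 35.6 CPM, Zeb2 43.7 and 49.3, Vim 3354 and 3442, and Cdh2 6.14 and 5.63. None of these 4 genes was past 2-fold, where 4.71% of 11073 genes were. The 6 epithelial genes had too few UMIs for this comparison.

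Against fibroblasts, the tumor cells were lower in Zeb2 and Cdh2 and near in Vim and Zeb1. The tumor-cell level of Zeb2 was 0.283 of the fibroblast level (0.226 to 0.361) and that of Cdh2 0.230 (0.128 to 0.465). Over the alternative settings the Cdh2 ratio ranged from 0.208 to 0.387, still past 2-fold. The Vim ratio was 0.876 (0.832 to 0.923) and the Zeb1 ratio 0.688 (0.472 to 1.05), an interval that includes 1. Of the 4 genes with enough UMIs, 2 were past 2-fold, both lower, where 35.6% of 11832 genes were past 2-fold in either direction and 24.1% were lower. With 44 fibroblasts the count is coarse: 3719 of these genes had 3 or fewer UMIs in fibroblasts, and 1252 had 0. The Vim direction turned under other settings, as given with its levels. For the 6 epithelial genes no fold is given, since the fibroblast limit of 7.75 CPM lies above each tumor-cell level.

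Against myeloid cells, each of the 5 genes with enough UMIs was past 2-fold. Cdh2 was higher in tumor cells by 8.12-fold (4.71 to 15.4), Zeb1 by 4.66-fold (3.99 to 5.48) and Vim by 2.43-fold (2.40 to 2.47). As means over cells the Cdh2 and Zeb1 ratios were smaller, at 4.42 and 2.63, still past 2-fold. Cdh1 was lower, as given above, and so was Zeb2, at 0.212 of the myeloid level (0.203 to 0.221). Large differences are common between such unlike cells: 46.0% of 12612 genes were past 2-fold, 25.5% higher in tumor cells and 20.5% lower. The 3 higher and 2 lower members are read against that background.

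Other epithelial genes were scarce as well. Genes named here beyond the 3 highest of a list and those past 2-fold between the Col3a1 groups were chosen after their values had been seen. Of 15 genes of epithelial junctions, 6 had 0 UMIs in tumor cells, among them the claudins Cldn3, Cldn4 and Cldn7 and occludin (Ocln), and 13 were under 1 CPM. The scaffold gene Tjp1, which many cell types use, was highest at 14.7 CPM, and the junctional adhesion gene F11r was at 0.861 against 109 in myeloid cells. Against myeloid cells, 1 of 5 junction genes with enough UMIs was at least 2-fold higher in tumor cells (Tjp1) and 3 were lower (F11r, Pkp3 and Tjp3), where 25.5% and 20.5% of all genes were. Of 12 regulators of epithelial identity, 8 had 0 UMIs, among them Esrp1, Esrp2, Grhl2, Ovol1 and Elf3. The exception was Klf4, a factor shared by epithelia and fibroblasts, at 112 CPM in tumor cells, 284 in fibroblasts and 76.4 in myeloid cells. Klf5 was at 1.01 and Grhl1 at 0.437. Klf4 and Klf5 were the regulators with enough UMIs against fibroblasts, with ratios of 0.394 (0.327 to 0.480) and 0.390 (0.0679 to 15.6), where Klf5 had 1 UMI in fibroblasts and its direction was not settled by the counts.

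Between the Col3a1 groups, 4 junction genes and 2 regulators had enough UMIs. Of each list 1 was past 2-fold: the desmosomal gene Pkp3 was 0.232 CPM in Col3a1-high and 0.907 in Col3a1-low cells, a ratio of 0.256 (0.0892 to 0.602), and Klf5 was 0.309 and 1.37, a ratio of 0.226 (0.0937 to 0.471). Of all 11735 genes with enough UMIs, 95 were at least 2-fold lower in Col3a1-high cells and 539 higher.

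Colon genes were also scarce. Of 12 genes of colon epithelium, 4 had 0 UMIs, including the intestinal master factor Cdx2 and Hnf4a, and 11 were under 1 CPM. Cdx1, a homeobox factor of the intestine, was at 0.159 and the galectin Lgals4 at 0.133.

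The regulators of epithelial-mesenchymal transition other than the ZEB genes were present. All 11 were at 1 CPM or more in tumor cells and 10 were at 10 or more. Sox9 was highest at 125 CPM, followed by Hmga2 at 104 and Prrx1 at 63.8, and the classical repressors Snai1 and Snai2 stood at 38.3 and 21.2. Against fibroblasts, where 35.6% of genes were past 2-fold, 3 were at least 2-fold higher in tumor cells (Sox9, Hmga2 and Twist2) and 3 lower (Prrx1, Tgfbr1 and Tgfbr2), with a median log2 ratio of -0.82 against -0.36 over all genes. Against myeloid cells, where 25.5% of genes were higher and 20.5% lower, 8 were higher and 3 lower, namely the growth factor gene Tgfb1 and its receptor genes Tgfbr1 and Tgfbr2, with a median log2 ratio of 3.27 against 0.22 over all genes. Between the Col3a1 groups Tgfbr2 was higher in Col3a1-high cells, at 46.6 against 19.5 CPM (ratio 2.39, 2.19 to 2.60), and Foxc2 was lower, at 5.92 against 12.5 (ratio 0.472, 0.393 to 0.564). Snai2 was near that size, at 30.8 and 16.2, a ratio of 1.90 (1.72 to 2.10).

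Structural genes of mesenchymal cells ranged from higher in tumor cells than in fibroblasts to far lower. Lgals1 (galectin-1) was 10200.0 CPM in tumor cells and 5372 in fibroblasts, and S100a4, a calcium-binding protein gene of motile cells, was 3030 and 553. By contrast Acta2, the smooth muscle actin of activated fibroblasts, was 4.68 in tumor cells and 2201 in fibroblasts, Tagln 0.689 and 1232, and Thy1 0.331 and 385. Of the 15 genes with enough UMIs, 1 was at least 2-fold higher in tumor cells (S100a4) and 10 were lower, with a median log2 ratio of -1.30; over all genes 24.1% were lower and the median was -0.36. Fn1 was 624 against 4908 and Sparc 883 against 10747 CPM. Cald1 was nearer, at 721 against 1131 CPM. Between the Col3a1 groups 4 of 14 such genes were at least 2-fold higher in Col3a1-high cells and 0 lower, where 539 of 11735 genes were higher and 95 lower, with Fn1 at 1179 and 335 (ratio 3.53, 3.46 to 3.59). Acta2 was 7.93 and 2.98 (ratio 2.66, 2.14 to 3.31), Tagln 1.78 and 0.121 (14.7, 6.27 to 42.2) and Tnc, the tenascin gene, 6.46 and 0.826 (7.82, 5.53 to 11.3).

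**Figure D4:**
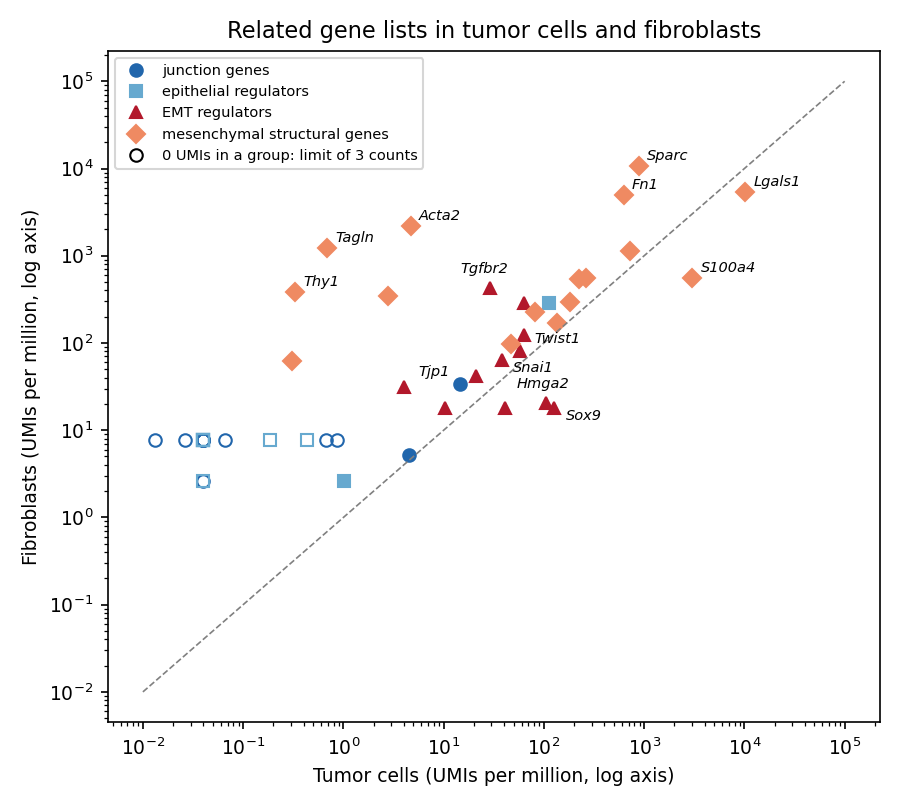
Genes of 4 related lists by level in tumor cells (horizontal log axis) and in fibroblasts (vertical log axis), both in CPM; open symbols mark 0 UMIs in a group and the dashed line equal levels. Regulators of the transition lie on both sides of the line, with Sox9 (125 and 18.1) below it, while Acta2 (4.68 and 2201) and Tagln (0.689 and 1232) lie far above it.

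The partners of the cadherins and of vimentin were counted too. Among 4 catenins, which link cadherins to actin, Ctnna1 was 99.8 CPM in tumor cells, Ctnnb1 41.2 and Ctnnd1 13.8, while Jup, the catenin of desmosomes, was 1.80. Jup was also the catenin past 2-fold between the Col3a1 groups, at 2.90 and 1.23 (ratio 2.36, 1.66 to 3.36). Over all genes, 539 of 11735 were at least 2-fold higher in Col3a1-high cells. Among 8 other intermediate filament and related genes, the nuclear lamins led, with Lmna at 522 and Lmnb1 at 68.3. Nestin (Nes) was at 4.84 and desmin (Des) at 1.37 against 113.7 in fibroblasts. The fibroblast Des value rested on 44 UMIs in 5 of 44 cells. Of the 4 of these with enough UMIs, 1 was past 2-fold between the Col3a1 groups, against the same share of all genes. Des was 2.17 in Col3a1-high and 0.947 in Col3a1-low cells (ratio 2.29, 1.52 to 3.44). Vimentin was thus the dominant cytoplasmic filament gene of the tumor cells.

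The wider keratin and cadherin families held a few exceptions. Of 53 keratin genes in the table, 37 had 0 UMIs in tumor cells and 5 had at least 20. Krt10, a keratin of differentiating skin, was the most frequent, with 1860 UMIs in 947 tumor cells (24.6 CPM) and 5.70 CPM in myeloid cells. Krt14 had 468 UMIs in 98 cells, and Krt16, a keratin of stressed skin, had 400 in 61 cells, of which 216 lay in 1 cell. Without that cell Krt16 was 2.44 CPM. In the 98 cells with Krt14, Krt16 stood at 47.8 CPM against 2.22 in the other tumor cells, a ratio of 21.6 (17.6 to 26.5), which was 2.49 (1.60 to 3.75) without that cell and 1.52 (0.865 to 2.52) without the 2 highest cells, an interval that includes 1. Krt7 had 4 UMIs in these cells and Krt8 had 0, and Vim was 3708 against 3268 CPM, so they kept the mesenchymal filament. Trp63, a master factor of basal skin cells, had 0 UMIs in them. Krt80 had 41 UMIs in tumor cells and Krt7 22.

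Of 23 numbered cadherin genes, 8 had 0 UMIs in tumor cells and 5 had at least 20. Cdh2 led with 494 UMIs, followed by Cdh26 with 190, Cdh24 with 66, Cdh5 (VE-cadherin) with 28 and Cdh11, the cadherin of fibroblasts and bone, with 23. Cdh11 was 0.305 CPM in tumor cells and 62.0 in fibroblasts. Unlike Cdh2, both Cdh26 and Cdh24 were past 2-fold between the Col3a1 groups: Cdh26 was 4.45 and 1.51 CPM (ratio 2.94, 2.18 to 3.99) and Cdh24 was 1.35 and 0.625 (ratio 2.17, 1.30 to 3.63). Over all genes, 539 of 11735 were at least 2-fold higher in Col3a1-high cells.

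The remaining marker lists showed little of other cell types among the tumor cells. Tumor cells had summed levels of 0.822 CPM for 5 granulocyte genes, 1.34 for 5 T and NK genes, 24.9 for 5 endothelial genes (Fabp4 21.3), 0.914 for 4 muscle genes and 5.96 for 4 hemoglobin genes. The 7 genes of skin epithelium summed to 30.9, most of it Krt10 (24.6) and Krt14 (6.20), with 4 of the 7 at 0 UMIs. The unassigned cells had 39009 CPM of hemoglobin transcripts and 266 of muscle genes, most of the latter Acta1, for which a single cell held 174 of 184 UMIs.

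As a description, the genes whose level over 7 cell groups followed each member most closely were listed from 11927 genes, by Pearson correlation of log2 (level + 10). Cdh1 was nearest to Sorl1, Dok2 and Ccl3 (r = 1.0 for each after rounding), Cdh2 to Gfra1, Sspn and Col8a1 (0.996 to 0.999), and Vim to Rhoc, Dmwd and Cttn (0.988 to 0.995). Zeb1 was nearest to Zfp507, Ppib and Bcl9l (r from 0.975 to 0.977), and Zeb2 to Sfxn5, Itgb5 and 9930111J21Rik1 (0.990 to 0.996). The groups come from 1 library and differ in depth, and with so few points many genes reach such values.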

How the data were processed

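The authors deposited UMI counts per gene and called cell from 1 pooled 10x Genomics 3' library; the file header names Cell Ranger 5.0.1, while the study's methods name an earlier version with the GRCm38/mm10 reference. Cells with fewer than 200 genes or over 20% mitochondrial UMIs were left out, and the highest scores against simulated doublets (2 per cell) were left out at 0.8% per 1000 cells. Groups were set by UMIs of few genes, without clustering: myeloid cells by Tyrobp and Fcer1g, T and NK cells by Cd3e, Cd3d and Ncr1 (at least 2), endothelial cells by Pecam1 and Cdh5 (at least 3) and fibroblasts by Col1a2 (at least 3). The members and lists were chosen with earlier results of these data known. Named were the members, the 3 highest genes of each related list with those past 2-fold (at most 4), Krt and Cdh genes with at least 20 UMIs in tumor cells and, for each member with at least 100 UMIs, the 3 genes most like it over the cell groups; other named genes were chosen after their values were seen. Some genes that this rule names are not reported here. The 2-fold calls needed 50 UMIs in both groups together, and some ratios from fewer UMIs are given with their intervals. How a count of 0 enters the 2-fold calls was settled after seeing the data: it stands at 3 counts. Alternatives were other mitochondrial, gene, doublet, gate and Col3a1 limits, no UMI minimum, means over cells and thinning; the lung-gene cells, depth classes, the 1.5-fold limit, the handling of 0, the myeloid cells with lung genes and leaving out the highest cells were added after seeing the data. The code for the ratios and 2-fold calls was run on Poisson counts drawn with known large changes. Those draws held no variation between cells and no change near the 2-fold limit, so they do not speak to such calls. Figures were drawn with matplotlib 3.10.9; doublets were scored with scikit-learn 1.9.0 and intervals computed with scipy 1.17.1, under Python 3.11.15 with pandas 2.3.3 and numpy 2.4.6.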

Additional observations from a re-analysis of the deposited data

Results flagged for a closer look

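Transcripts of 5 epithelial genes stood above the limit of 3 counts in the 464 unassigned cells, which enter no comparison of tumor cells, fibroblasts and myeloid cells. There were 13 UMIs of Krt8, 15 of Krt18, 5 of Krt7, 11 of Epcam and 6 of Cdh1 in these cells. Of them, 6, 9, 3, 9 and 5 lay in the 19 cells with lung epithelial transcripts.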

How the results depend on the processing

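The summed level of the 4 mesenchymal genes in tumor cells moved past its narrow counting interval to 3433 CPM with a 10% mitochondrial limit, to 3387 without a limit and to 3281 as a mean over cells, where that of the 6 epithelial genes was 0.923. Between the Col3a1 groups, 1 gene (Zeb1, ratio 2.12) was past 2-fold when Col3a1 was split at 20 per 10000, and 4 were without a minimum of UMIs, where low counts enter. The Vim ratio of tumor cells to fibroblasts turned to 1.05 without a mitochondrial limit and to 1.14 as a mean over cells; the cause was not tested. In the other 34 of 40 alternatives both sums stayed within their counting intervals and the counts of genes past 2-fold within 1.5 times; the count against myeloid cells went from 5 to 6 without a minimum of UMIs. Of 88 alternative ratios, 73 stayed within the counting interval and 13 moved with the same direction, and of 60 alternative member levels 9 moved. Taking a gene with 0 UMIs as an infinite ratio, an alternative added after seeing the data, left the members' counts at 0, 2 and 5 and raised the share of all genes past 2-fold between tumor cells and fibroblasts to 45.9%. No paired analysis was possible because the series part held 1 library. Depth limits the small groups: a count of 0 in 387166 fibroblast UMIs allows up to 7.75 CPM, and the endothelial (76320 UMIs) and lung-gene cells (14488) were shallower still.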
